A study of Mus musculus with 16 samples.

Results

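The response of Mmp7-null mouse airway epithelium to a scratch injury was examined by comparing 4 scratched with 4 uninjured Mmp7-null cultures, 8 of the 16 arrays of the series, over 18193 genes. The 8 arrays are all those labelled Mmp7-/-, with no measured value used to assign them. The 8 wild-type arrays served for comparison, and they also entered the choice of probe set and the estimate of each gene's spread. Cells of the airway lining of C57BL/6 mice had been cultured at an air-liquid interface, in which the upper surface is exposed to air and the cells differentiate as they do in the airway. All 4 groups (Mmp7-null uninjured, Mmp7-null scratched, wild-type uninjured and wild-type scratched, 4 arrays each) were kept without serum for 24 hours before RNA was taken. The scratched cultures of both genotypes had received 3 scratches with a pipette tip. The labels give neither the age of the mice, nor the interval between scratch and harvest, nor the number of animals behind the cultures, so the p-values measure only the spread between these arrays, which may be technical. RNA came from whole cultures, so a change in the share of cells that express a gene and a change in RNA per cell cannot be told apart.

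A gap in an epithelial sheet is closed when cells at its edge flatten, loosen their attachment, crawl over a newly laid matrix and later divide. Epidermal growth factor receptor, AP-1 and YAP signalling are known to drive the migration, while NF-kB signalling brings in leukocytes through chemokines. Mmp7 (matrilysin) is a secreted metalloproteinase made by injured airway epithelium, where it is known to shed syndecan-1 and E-cadherin ectodomains during repair.

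Levels are given as log2 intensity of 1 probe set per gene, in replicate order 1 to 4 for each group, and a change is the scratched mean minus the uninjured mean on that scale. A gene is said to rise or fall where limma's moderated test gave an adjusted p below 0.05 over all genes. By this rule 859 genes (4.72% of those tested) passed, 413 higher (2.27%) and 446 lower (2.45%). Of these, 413 genes passed again in every fit that left out 1 Mmp7-null array, and the genes named below as risen or fallen are among them unless it is said otherwise. Without uninjured replicate 2 or 3 the total was 516 or 528. With the 8 Mmp7-null arrays fitted alone it was 402. The number lower was 272, 227 and 218 without uninjured replicates 1, 2 and 3, and 247 without scratched replicate 1, whose upper quartile of signal was the lowest of the 8 arrays. All 4 scratched arrays lay above all uninjured ones in 4.1% of genes and below them in 8.72%, 12.8% together. Over all genes tested the median change was -0.02. The 8 Mmp7-null arrays fall into 2 sets by their spiked-in control transcripts. The Lys set holds uninjured 1 and 2 and scratched 1 and 4, and the Phe set uninjured 3 and 4 and scratched 2 and 3. All 859 called genes had the same sign of change within both sets. The change over the 8 arrays is the mean of the changes within the 2 sets. That agreement therefore largely follows from selecting called genes, and it was no test of a difference between the sets. Every one of the 32 measured multiciliated, 14 club and 14 basal cell markers was above background in these cultures, which fits the label of airway epithelium. The Mmp7 probe set (Entrez 17393, chromosome 9) read 2.15, 2.17, 2.13 and 2.15 in the uninjured and 2.59, 2.19, 2.20 and 2.29 in the scratched arrays. It was also at background in the wild-type arrays, at 2.16 uninjured and 2.17 scratched, so it does not check the genotype label.

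**Figure D1:**
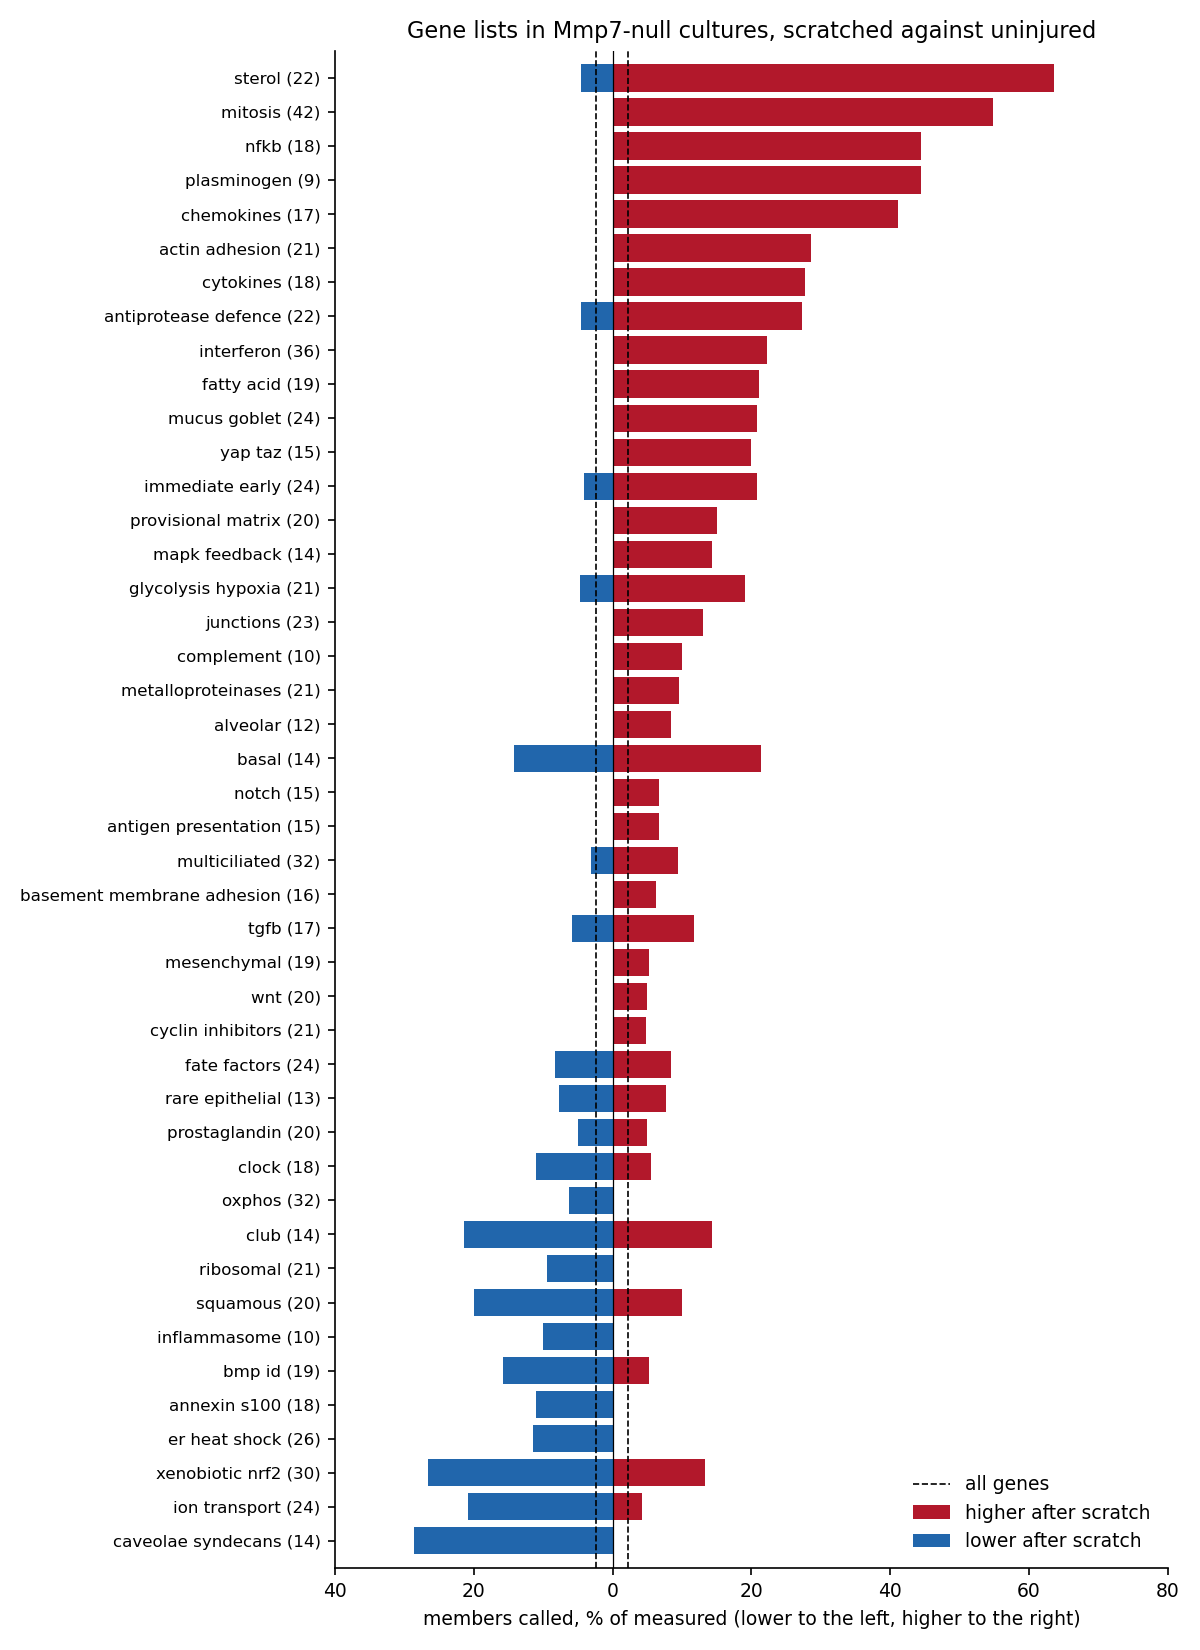
Percentage of the measured members that rose (bars to the right) or fell (bars to the left) in scratched Mmp7-null cultures, for each gene list with at least 1 such member, with the number of measured members beside each name and dashed lines at the percentages over all genes, 2.27% higher and 2.45% lower. The sterol and mitosis lists reach furthest to the right, with 14 of 22 and 23 of 42 members.

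The largest changes lay mostly upwards: 57 called genes were at least 2-fold higher and 8 at least 2-fold lower. Ppbp, the precursor of the neutrophil-attracting chemokine CXCL7, read 6.91, 7.32, 5.85 and 5.21 in the uninjured and 9.99, 10.20, 10.26 and 10.32 in the scratched arrays. The uninjured arrays were spread widely but all lay well below the 4 scratched arrays, which were close together, and the change was 3.87 (SE 0.39, adjusted p = 0.00013). Serpinb2, an inhibitor of plasminogen activators, read 6.31, 5.55, 5.49 and 5.76 in the uninjured and 7.02, 8.05, 8.26 and 8.22 in the scratched arrays. Every scratched array was above the highest uninjured one, with scratched replicate 1 the lowest of the injured group, and the change was 2.11 (SE 0.28, adjusted p = 0.00090). Ptgs2, the inducible cyclooxygenase gene, read 8.51, 7.92, 8.07 and 8.14 in the uninjured and 9.98, 10.17, 10.33 and 10.49 in the scratched arrays. Both groups were tight and apart, and the change was 2.08 (SE 0.19, adjusted p = 7.2e-05). Calcb, which encodes a calcitonin gene-related peptide of neuroendocrine cells, read 8.81, 9.04, 8.17 and 8.03 in the uninjured and 10.34, 10.32, 10.64 and 10.52 in the scratched arrays. It also did not overlap between groups and rose by 1.94 (adjusted p = 6.9e-05). Of 13 tuft, neuroendocrine and ionocyte markers 3 were above background, Calcb, Dclk1 and Trpm5. Calcb was the only one that rose. Dclk1 passed as lower at -0.62 with all arrays, but not in every leave-one-out fit, and Trpm5 was at -0.01. Lrg1, a secreted glycoprotein of inflamed epithelium, rose by 2.27 (adjusted p = 0.0036), and Fgd3 by 1.68 (adjusted p = 0.0015).

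**Figure D2:**
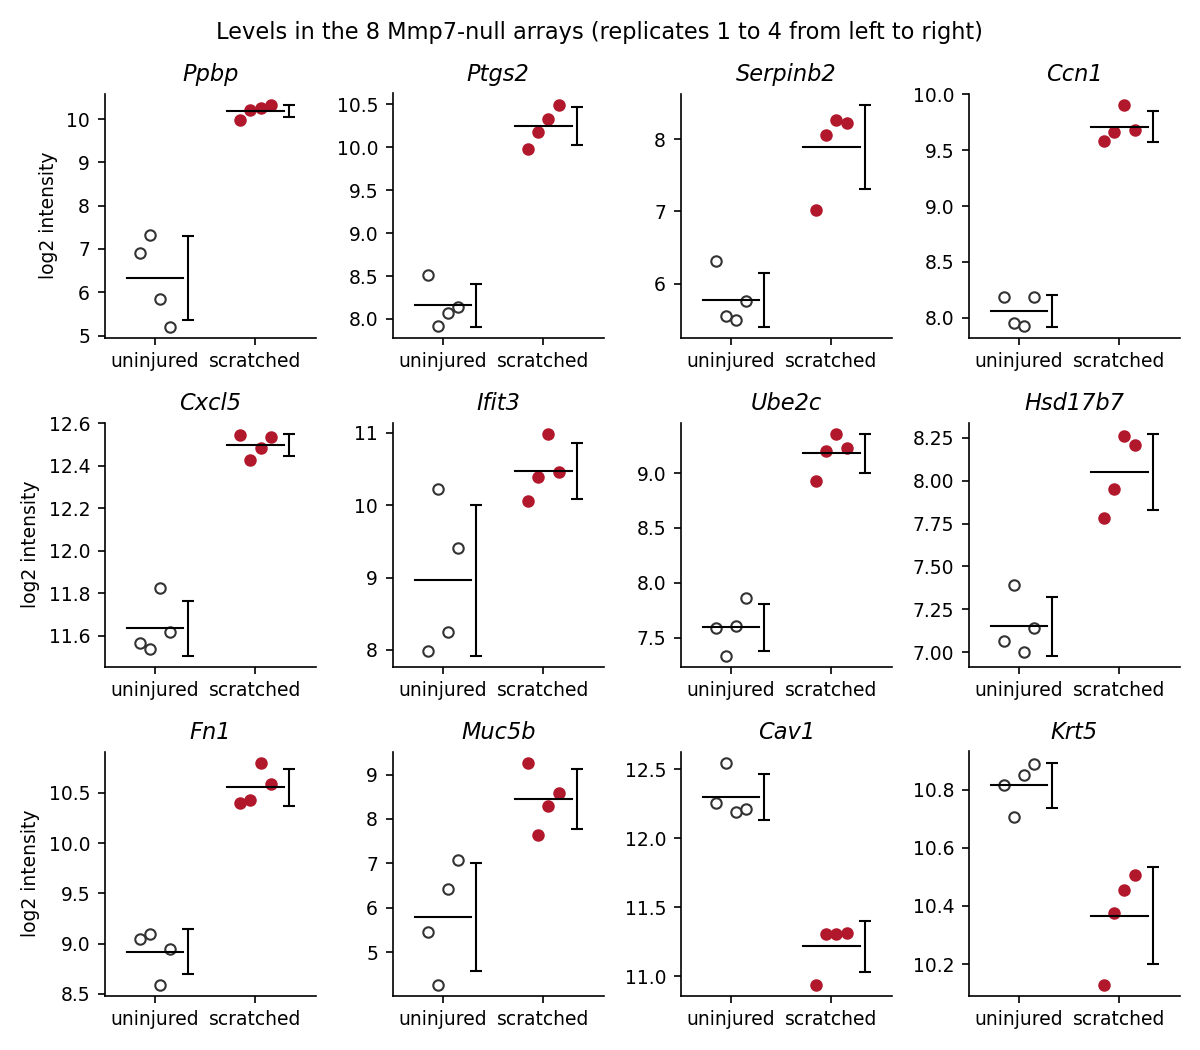
Log2 intensity of 12 genes in the 4 uninjured (open circles) and 4 scratched (filled circles) Mmp7-null arrays, with horizontal lines at the group means and vertical bars of 1 SD (n = 4), each panel on its own scale. In 11 panels the groups do not overlap, while in the Ifit3 panel uninjured replicate 2 lies among the scratched arrays. The called genes drawn were picked by these same results, and over all genes the groups did not overlap in 12.8%.

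Genes that respond within the first hours of wounding and growth factor signalling were described in 4 lists. Of 24 AP-1 and other immediate early transcription factors, 5 rose and 1 fell, with a median change of 0.20. Egr1, a zinc finger factor induced by growth factors, read 7.61, 7.45, 7.94 and 8.06 in the uninjured and 8.48, 8.51, 8.56 and 8.66 in the scratched arrays. All 4 scratched arrays were above the uninjured ones, and the change was 0.79 (SE 0.12, adjusted p = 0.0024). The AP-1 subunits Fosl2 and Fos rose by 0.56 (adjusted p = 0.0011) and 0.53 (adjusted p = 0.0046), while Jun was at 0.26 and Junb at 0.30, neither passing. Klf10, a TGF-beta inducible repressor, was lower by -0.38 with all arrays, but not without uninjured replicate 2. Of 14 feedback genes of the MAP kinase pathway 2 rose. Phlda1, a target of that pathway, rose by 0.74 (adjusted p = 0.00026); Dusp1, a phosphatase of MAP kinases, was at 0.45 and kept its call in 2 of the 8 leave-one-out fits. None of 13 epidermal growth factor family genes passed limma's adjusted threshold, which 4.72% of all genes passed, so a count of 0 is near that share. At an unadjusted p under 0.05, 1 was higher and 1 lower, against 1252 and 1909 of all 18193 genes. Hbegf, a ligand of wound-edge cells, was at 0.46 (adjusted p = 0.20).

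Targets of YAP and TAZ, the mechanically controlled coactivators, were represented by 15 genes, of which 3 rose. Ccn1, a matricellular protein, read 8.19, 7.95, 7.93 and 8.19 in the uninjured and 9.58, 9.66, 9.91 and 9.68 in the scratched arrays. The scratched arrays all lay more than 1 unit above the uninjured ones, and the change was 1.64 (SE 0.12, adjusted p = 8.8e-06). A second Ccn1 probe set gave 1.67, and the other two, which were dimmer, gave -0.08 and -0.40. Ccn2, its relative connective tissue growth factor, read 11.42, 11.41, 11.35 and 11.45 in the uninjured and 12.14, 12.15, 12.52 and 12.08 in the scratched arrays. Again no array of one group fell within the other, and the change was 0.81 (SE 0.08, adjusted p = 7.2e-05). Yap1 itself was at 0.25 and lost its call when any of 6 arrays was left out, with a second probe set at 0.06.

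The members of the chemokine, cytokine and NF-kB target lists that passed were all higher. None passed as lower in limma's test, against 2.45% of all genes. The number lower at an unadjusted p under 0.05 was 0 in each list, against 1909 of all 18193 genes. Of 17 chemokines 7 rose, with a median over the list of 0.48. Cxcl5, which attracts neutrophils, read 11.57, 11.54, 11.82 and 11.62 in the uninjured and 12.54, 12.43, 12.48 and 12.54 in the scratched arrays. The groups were far apart relative to their spread, and the change was 0.86 (SE 0.06, adjusted p = 1.2e-05). Ccl28 and Cxcl15, epithelial chemokines of mucosal surfaces, rose by 0.67 and 0.58 (adjusted p = 0.011 and 0.0036), and the neutrophil chemokine Cxcl2 by 0.48 (adjusted p = 0.015). Ccl5 and Cxcl3 passed with all arrays, at 1.19 and 0.81, but in 2 and 0 of the 8 leave-one-out fits. Cxcl1 (0.72, adjusted p = 0.21) and Ccl20 (0.50, adjusted p = 0.059) did not pass.

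Of 18 cytokines and their antagonists 5 rose. Csf3, the granulocyte colony stimulating factor, read 7.27, 7.19, 7.73 and 7.53 in the uninjured and 8.68, 8.37, 8.40 and 8.53 in the scratched arrays. The scratched arrays were all above the uninjured ones, and the change was 1.07 (SE 0.16, adjusted p = 0.0016). Csf2, the granulocyte-macrophage factor, read 5.92, 5.98, 6.02 and 6.09 in the uninjured and 7.03, 7.04, 6.81 and 7.24 in the scratched arrays. It was likewise separated, with a change of 1.03 (SE 0.14, adjusted p = 0.00097). Lif, a cytokine of the interleukin-6 family, rose by 1.03 (adjusted p = 0.00036) and Il1rn, the interleukin-1 receptor antagonist, by 1.18 (adjusted p = 0.0047). The macrophage factor Csf1 passed at 0.56 in the probe set used, but in 3 of 8 leave-one-out fits, and a second probe set gave 0.16. Il6 and Il1a were at background in both groups, and Il33, an alarmin, was at 0.37 (adjusted p = 0.59).

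Of 18 NF-kB targets and regulators 8 rose, with a median of 0.31; the number was 5 to 9 in the leave-one-out fits and lowest without uninjured replicate 1, scratched replicate 1 or scratched replicate 2. Tnfaip3, the ubiquitin-editing enzyme A20 that dampens NF-kB, read 8.15, 8.31, 8.32 and 8.23 in the uninjured and 8.81, 8.88, 8.85 and 8.88 in the scratched arrays. No scratched array came near the uninjured range, and the change was 0.60 (SE 0.06, adjusted p = 0.00010). Nfkbiz, an inducible IkB protein needed for a subset of NF-kB targets, read 10.98, 10.84, 10.94 and 11.02 in the uninjured and 11.55, 11.71, 11.43 and 11.57 in the scratched arrays. The change was 0.62 (SE 0.06, adjusted p = 8.4e-05), and 2 other probe sets gave 0.58 and 0.72. Tnfaip2 rose by 0.98, the apoptosis inhibitor Birc3 by 0.53 and the inhibitor Nfkbie by 0.46 (adjusted p = 0.00019, 0.0013 and 0.0097). Nfkbia, the classical IkB-alpha, passed at 0.29 in 3 of 8 leave-one-out fits, and a second probe set gave 0.43.

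Because the data bear on NF-kB targets, proximal promoters were searched for the NF-kB motif (GGGA, any base, then TTTCC) on both strands, in windows that reach from upstream of a gene's start to just past it in RefSeq's annotation of GRCm38.p6. It was present in 3 of 10 chemokine genes and 2 of 16 NF-kB genes with a promoter in the table, against 0.547% of 14452 genes. Matches in 3 genes that passed with all arrays are shown, in the direction of the gene, with the motif or its reverse complement in capitals. The Cxcl2 stretch is chr5:90903782-90903831 (plus strand), the Cxcl3 stretch chr5:90786008-90786057 (plus strand) and the Nfkbia stretch chr12:55492648-55492696 (minus strand).
Cxcl2: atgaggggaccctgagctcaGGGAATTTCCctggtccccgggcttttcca
Cxcl3: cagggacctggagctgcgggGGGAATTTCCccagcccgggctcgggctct
Nfkbia: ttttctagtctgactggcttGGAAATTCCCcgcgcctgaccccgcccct
The matches end 87, 63 and 19 bases before the start in the same order. Of the NF-kB list members that rose, 1 of 7 with a promoter in the table had a match in this window, as had 1 of 9 that did not pass. Among the chemokines a match was present in 2 of 5 that rose and 1 of 5 that did not pass. The matches in Cxcl1 and Nfkb2, which did not pass, are not shown. A match is a description of the letters and not of binding.

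Of 36 measured interferon-stimulated genes 8 rose and the median change was 0.67. In 17 of them all scratched arrays lay above all uninjured ones, which held for 4.1% of all genes. Ifit3, an antiviral protein with tetratricopeptide repeats, read 7.98, 10.22, 8.25 and 9.40 in the uninjured and 10.05, 10.38, 10.99 and 10.46 in the scratched arrays. Uninjured replicates 1 and 3 were the lowest, replicate 4 was between, and replicate 2 was above scratched replicate 1, so the change of 1.51 did not pass (adjusted p = 0.16). Irf7, a transcription factor that amplifies interferon genes, read 5.25, 7.11, 5.11 and 6.49 in the uninjured and 6.96, 7.34, 7.88 and 7.15 in the scratched arrays. It had the same order of uninjured arrays and did not pass (1.34, adjusted p = 0.093). Without uninjured replicate 2 the number that rose was 13. It was 3 without uninjured replicate 1, 4 without uninjured replicate 3 and 3 without scratched replicate 3.

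Members that kept their call in every leave-one-out fit were Ifi27l2a and Ifitm1. Ifi27l2a, a small mitochondrial protein strongly induced by interferon, read 4.93, 6.91, 4.63 and 5.61 in the uninjured and 7.91, 9.44, 9.01 and 8.50 in the scratched arrays. Even uninjured replicate 2, the highest of its group, was below every scratched array, and the change was 3.20 (SE 0.48, adjusted p = 0.0020). Ifitm1, a membrane protein that blocks virus entry, read 12.56, 12.05, 12.47 and 12.27 in the uninjured and 13.48, 13.42, 13.18 and 13.40 in the scratched arrays. The 2 groups stood apart, and the change was 1.03 (SE 0.12, adjusted p = 0.00028). Rtp4 passed at 1.43 with all arrays but in 2 of 8 leave-one-out fits, and its other probe set gave 0.90. The ISRE-like motif (GAAA, any 2 bases, GAAA), on either strand, was found in 12 of 27 list members with a promoter in the table, against 3.63% of all genes. It was in 1 of 4 members that rose and 11 of 23 that did not pass. An example is the Ifit3 stretch at chr19:34583353-34583402 (plus strand), in which the capitals are the reverse complement of the motif.
Ifit3: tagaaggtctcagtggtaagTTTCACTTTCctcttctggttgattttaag
Of 15 antigen presentation genes 1 passed, near the 4.72% of all genes that did. This was the immunoproteasome subunit Psmb8 at 0.54, in 3 of 8 leave-one-out fits. The class I genes H2-K1 and B2m were at 0.25 and 0.25 and did not pass.

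**Figure D3:**
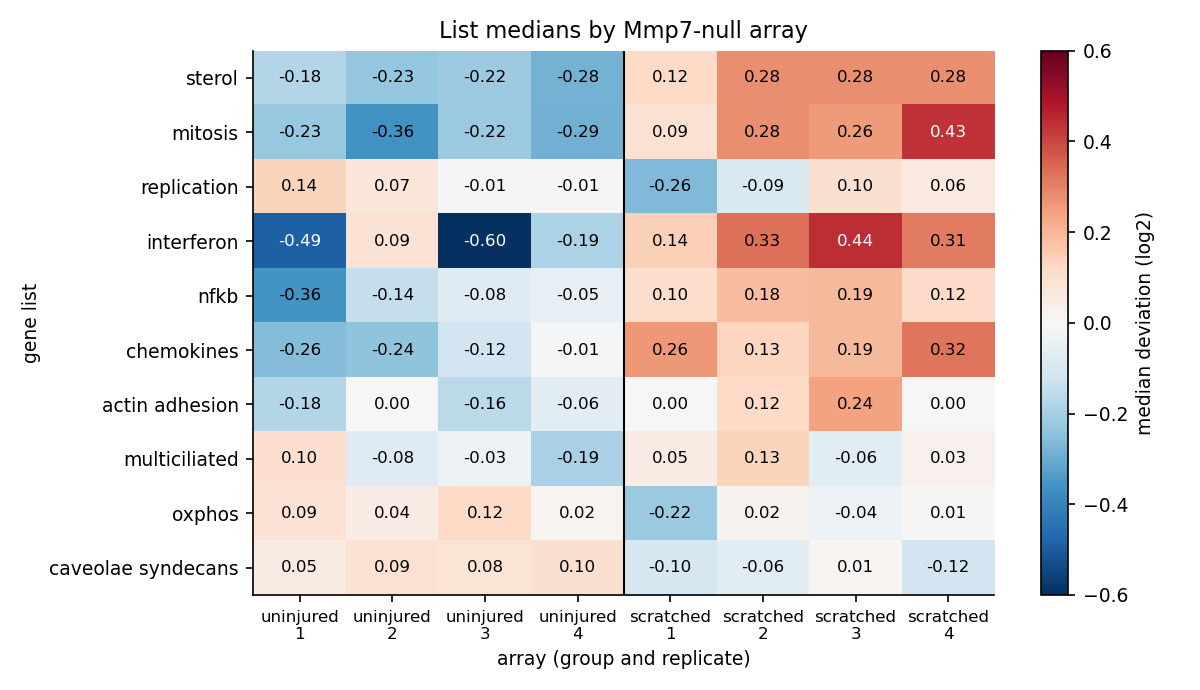
Median deviation of the members of 10 gene lists in each of the 8 Mmp7-null arrays, in log2 units from each gene's mean over the 8 arrays (blue below, red above). Mitosis and sterol genes are below 0 in all uninjured and above 0 in all scratched arrays, and in the interferon row uninjured replicate 2 is at 0.09, beside -0.60 in uninjured replicate 3.

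Genes of G2 and mitosis rose in 23 of 42 cases and none fell, with a median of 0.54. The number that rose was 18 to 24 in the leave-one-out fits. Ube2c, the ubiquitin-conjugating enzyme of the anaphase-promoting complex, read 7.58, 7.34, 7.60 and 7.86 in the uninjured and 8.93, 9.20, 9.36 and 9.23 in the scratched arrays. All scratched arrays were more than 1 unit above the highest uninjured one, and the change was 1.58 (SE 0.13, adjusted p = 2.5e-05). Plk1, the polo-like kinase of mitotic entry, read 5.58, 5.23, 5.54 and 5.27 in the uninjured and 6.59, 6.63, 6.67 and 6.77 in the scratched arrays. The change was 1.26 (SE 0.17, adjusted p = 0.00081), with no overlap. Ccnb2, cyclin B2, read 6.11, 6.04, 6.32 and 6.34 in the uninjured and 7.17, 7.53, 7.50 and 7.55 in the scratched arrays. It was separated in the same way, with a change of 1.23 (SE 0.12, adjusted p = 0.00011). The centromere proteins Cenpa and Cenpf rose by 1.22 and 1.20 (adjusted p = 0.00075 and 0.00081), and the kinesins Kif20a and Kif23 of cytokinesis by 1.03 and 0.88 (adjusted p = 0.00028 and 0.0015). Mki67, a marker of cycling cells, read 8.17, 7.62, 8.07 and 8.09 in the uninjured and 8.42, 8.57, 8.77 and 8.90 in the scratched arrays and rose by 0.68 (adjusted p = 0.011).

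Genes of DNA replication gave no calls. None of 32 replication genes passed limma's adjusted threshold (0 higher and 3 lower at an unadjusted p under 0.05). Over all genes 4.72% passed, so 0 of 32 is near that share. At an unadjusted p under 0.05, 1252 of all 18193 genes were higher and 1909 lower. The median of the list was -0.09, and the replication clamp Pcna, the helicase subunit Mcm2 and the nucleotide reductase subunit Rrm2 were at -0.15, -0.18 and -0.21. Of 21 G1 cyclins and cell cycle inhibitors 1 rose, the stress gene Gadd45a at 0.46 (adjusted p = 0.0080). A count of 1 in 21 is also near the 4.72% of all genes that passed. Ccnd1 was at 0.04 and Cdkn1a at 0.05.

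The promoters of the mitosis list were searched for 2 elements of cell cycle genes. The CHR element TTTGAA, at which cell cycle genes are known to be controlled by the DREAM complex and FoxM1, occurred on either strand in 26 of 35 members with a promoter in the table, against 15.7% of all genes. The CCAAT box, searched as ATTGG on both strands, occurred in 26 of 35, against 42%. The CHR was present in 15 of 19 members that rose and in 11 of 16 that did not pass. These counts cover the whole window, which ends past the start; a match lying wholly before the start was found in 12 members for the CHR and 26 for the CCAAT box, against 14.1% and 39.4% of all genes. The stretches, from before the start, of 3 mitotic genes are shown with the CHR, or its reverse complement in Ube2c, in capitals: Ube2c at chr2:164769880-164769925 (plus strand), Prc1 at chr7:80294426-80294471 (plus strand) and Cdc20 at chr4:118437344-118437381 (minus strand).
Ube2c: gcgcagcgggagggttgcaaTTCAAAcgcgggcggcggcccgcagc
Prc1: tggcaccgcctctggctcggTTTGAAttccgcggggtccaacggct
Cdc20: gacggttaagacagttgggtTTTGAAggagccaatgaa
Prc1, a spindle midzone protein, rose by 0.62 (adjusted p = 0.00042). Cdc20, the activator of the anaphase-promoting complex, was at 0.44 and passed in 2 of 8 leave-one-out fits.

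Sterol synthesis was the list with the largest share of risen genes, 14 of 22, with 1 lower and a median of 0.48. The enzymes that rose ran from the first steps to the late ring modifications. At the top of the pathway Hmgcs1, the HMG-CoA synthase, read 11.81, 11.52, 11.39 and 11.37 in the uninjured and 11.91, 12.19, 11.93 and 12.04 in the scratched arrays. Scratched replicate 1 was little above uninjured replicate 1 and the groups did not overlap, with a change of 0.50 (SE 0.09, adjusted p = 0.0068) and 4 other probe sets at 0.53, 0.55, 0.53 and 0.68. In the isoprenoid steps Mvd, the mevalonate decarboxylase, rose by 0.73 (adjusted p = 0.00084) and Idi1, the isopentenyl isomerase, by 0.65 (adjusted p = 0.0017). At the branch to squalene Fdft1 rose by 0.55, and Sqle and Lss, which form and close the ring precursor, by 0.37 and 0.54 (adjusted p = 0.00039, 0.0087 and 0.0022). Among the late enzymes Hsd17b7, a 3-ketosteroid reductase, read 7.07, 7.39, 7.003 and 7.14 in the uninjured and 7.78, 7.95, 8.26 and 8.21 in the scratched arrays. All scratched arrays were higher, and the change was 0.90 (SE 0.13, adjusted p = 0.0020). Tm7sf2, Msmo1 and Cyp51 rose by 0.62, 0.57 and 0.53 (adjusted p = 0.0013, 0.0087 and 0.0067), whereas the isomerase Ebp was lower by -0.30 with all arrays but kept its call in 3 of 8 leave-one-out fits.

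The regulators of the pathway were measured too. Srebf2, the transcription factor that switches on cholesterol synthesis, read 6.29, 6.53, 6.72 and 6.52 in the uninjured and 7.26, 7.27, 7.17 and 7.32 in the scratched arrays. The scratched arrays were tight and all above the uninjured ones, and the change was 0.74 (SE 0.08, adjusted p = 0.00017), while its other probe set gave 0.32. Srebf1, its relative for fatty acid genes, rose by 0.52 (adjusted p = 0.014). Of 19 fatty acid synthesis genes 4 rose, among them the fatty acid synthase Fasn at 0.58, the desaturase Fads1 at 0.50 and the phosphatidate phosphatase Lpin1 at 0.44 (adjusted p = 0.00075, 0.0098 and 0.0093). Scd2, another desaturase, rose by 0.51, with a second probe set at 0.58. The SRE-like motif TCACNCCAC, on either strand, was found in 1 of 18 sterol genes with a promoter in the table, against 1.46% of all genes; the match was in Hmgcs1.

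**Figure D4:**
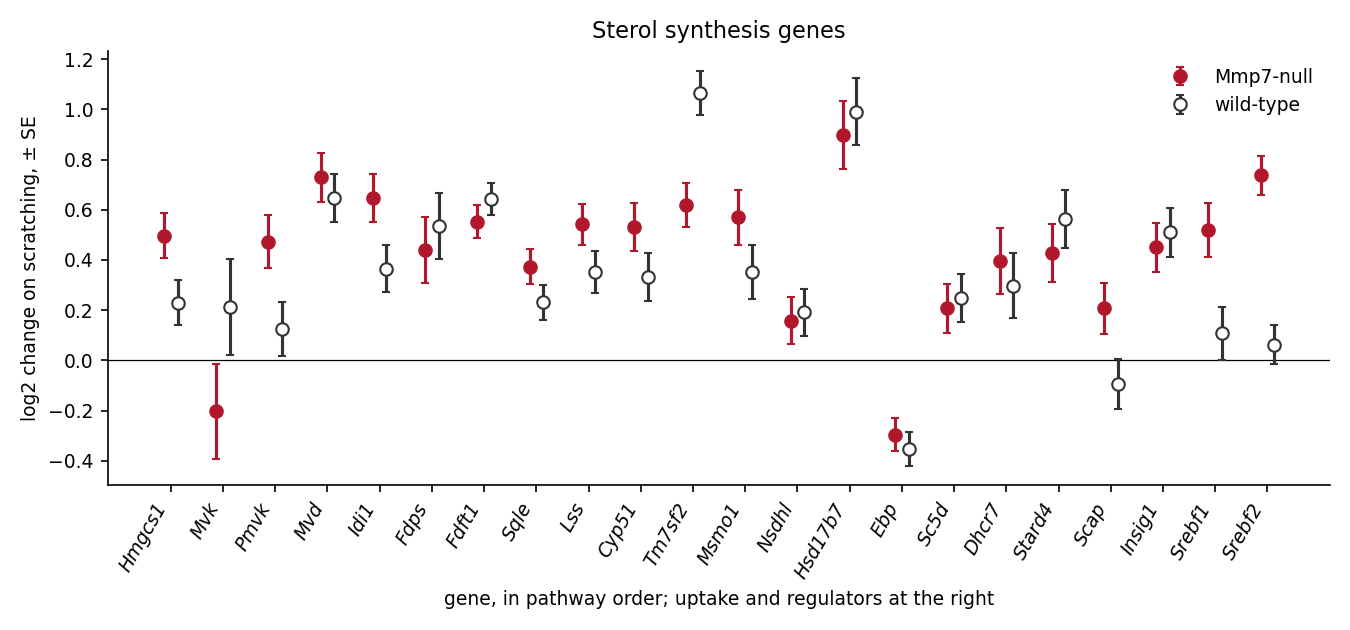
Log2 change (scratched minus uninjured) with its standard error for the measured sterol synthesis genes in pathway order, in Mmp7-null (filled circles) and wild-type (open circles) cultures, n = 4 arrays per group, followed by the regulators. The filled circles lie above 0 for every gene drawn except Mvk and Ebp, and Srebf2 shows the widest gap between the genotypes.

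Genes of the wound matrix and its proteolysis included some of the larger increases. Of 20 provisional matrix genes 3 rose. Fn1, fibronectin, read 9.04, 9.10, 8.59 and 8.95 in the uninjured and 10.40, 10.43, 10.80 and 10.59 in the scratched arrays. No array overlapped, and the change was 1.63 (SE 0.11, adjusted p = 6.8e-06). Tnc, tenascin C, an anti-adhesive protein of wound edges, read 5.98, 5.31, 4.69 and 5.61 in the uninjured and 7.08, 6.62, 7.23 and 7.25 in the scratched arrays. Uninjured replicate 3 was the lowest and replicate 1 the highest of a broad group that still lay below every scratched array, and the change was 1.65 (SE 0.23, adjusted p = 0.0012). Dcn, the collagen-binding proteoglycan decorin, rose by 1.23 (adjusted p = 0.0036). Of 9 genes of the plasminogen and coagulation system 4 rose. Beside Serpinb2 these were Plaur, the urokinase receptor, at 0.67 and F3, tissue factor, at 0.70 (adjusted p = 0.0073 and 0.00028). The thrombin receptor F2r was at 0.20 and passed in 0 of 8 leave-one-out fits, while urokinase itself, Plau, was at background.

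Of 21 metalloproteinases and inhibitors 2 rose. Timp1, an inhibitor of metalloproteinases, read 3.89, 3.91, 3.95 and 4.50 in the uninjured and 5.83, 4.96, 5.93 and 5.26 in the scratched arrays. Every scratched array was above the uninjured ones, and scratched replicates 1 and 3 were the highest, with a change of 1.44 (SE 0.20, adjusted p = 0.0012). Adam8, a membrane-anchored sheddase, read 9.21, 9.39, 9.13 and 9.13 in the uninjured and 9.72, 9.79, 9.75 and 9.60 in the scratched arrays. Its groups did not overlap and the change was 0.50 (SE 0.08, adjusted p = 0.0024). Mmp14, Mmp13 and Mmp10 were at 0.22, 0.13 and -0.03, none passing. Of 16 basement membrane and integrin genes 1 rose, near the 4.72% of all genes that passed. This was the alpha-v integrin Itgav at 0.32 (adjusted p = 0.0046), and a second probe set gave 0.17.

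Of 21 actin and focal adhesion genes 6 rose and none fell. Zyx, a focal adhesion protein, read 6.07, 6.07, 6.14 and 6.13 in the uninjured and 7.04, 6.82, 7.07 and 6.85 in the scratched arrays. Both groups were tight and apart, and the change was 0.84 (SE 0.08, adjusted p = 5.7e-05). Actn1, the actin crosslinker alpha-actinin, rose by 0.81 (adjusted p = 2.5e-05), with 2 other probe sets at 0.61 and 0.48. Pdlim7, Tagln2 and Tpm4, which bind or stabilise actin filaments, rose by 0.61, 0.45 and 0.38 (adjusted p = 0.0014, 0.0020 and 0.0078). The vinculin gene Vcl was at -0.12 and did not pass. Of 23 junction genes 3 passed, but 1 to 3 did so in the leave-one-out fits, with Cldn1 the one that always passed. Cldn1, a tight junction claudin, read 3.19, 3.05, 2.88 and 2.92 in the uninjured and 4.37, 3.62, 5.14 and 4.66 in the scratched arrays. The uninjured arrays were near background and the change was 1.44 (SE 0.27, adjusted p = 0.0081). The E-cadherin gene Cdh1 was at 0.17 and Tjp1 at -0.23, neither passing.

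Secretory genes split by kind. Of 24 mucus and goblet cell genes 5 rose and none fell, with a median of -0.01. Muc5b, a gel-forming airway mucin, read 5.45, 4.27, 6.42 and 7.07 in the uninjured and 9.27, 7.63, 8.30 and 8.57 in the scratched arrays. The uninjured arrays spanned nearly 3 units and all lay below the lowest scratched array, with a change of 2.64 (SE 0.48, adjusted p = 0.0068). Dmbt1, a mucosal scavenger protein, rose by 2.23 (adjusted p = 0.013). Agr2, a disulfide isomerase needed for mucin folding, read 9.64, 9.10, 9.58 and 9.72 in the uninjured and 11.05, 10.72, 10.76 and 11.26 in the scratched arrays. It was separated by about 1 unit, with a change of 1.44 (SE 0.13, adjusted p = 7.2e-05). Clca3a2 rose by 1.33 (adjusted p = 0.00010), with a dimmer probe set at 0.20. Muc5ac was at background in both groups, and Spdef, the goblet cell transcription factor, was at -0.04.

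Of 14 club cell genes 2 passed as higher and 3 fell. Aldh3a1, an aldehyde dehydrogenase of secretory cells, read 12.14, 12.12, 12.28 and 12.38 in the uninjured and 11.29, 11.07, 11.29 and 11.13 in the scratched arrays. The scratched arrays were all about 1 unit lower, and the change was -1.03 (SE 0.11, adjusted p = 0.00015). The cytochrome Cyp4b1 and the GABA receptor subunit Gabrp fell too (changes of -0.46 and -0.51, adjusted p = 0.0012 and 0.011). Hp and Reg3g passed upwards at 0.54 and 0.23, in 2 and 1 of 8 leave-one-out fits. The defining secretoglobin Scgb1a1 was at -0.02 and did not pass. Of 22 antiprotease and defence genes 6 passed as higher with all arrays and 3 to 6 in the leave-one-out fits (fewest without uninjured replicate 1, uninjured replicate 2, uninjured replicate 3 or scratched replicate 1). Lrg1 and Lcn2, an iron-binding lipocalin (0.26, adjusted p = 0.0072), always passed, and complement factor Cfb rose by 1.06 (adjusted p = 0.0070). Slpi, the secretory leukocyte protease inhibitor, fell.

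Of 14 basal cell genes 3 rose and 2 fell. Krt17, a keratin of stressed and migrating epithelium, read 9.62, 9.35, 9.01 and 9.29 in the uninjured and 9.88, 10.28, 10.53 and 10.30 in the scratched arrays. The groups did not overlap, and the change was 0.93 (SE 0.16, adjusted p = 0.0041). Krt5, the defining basal keratin, read 10.81, 10.71, 10.85 and 10.89 in the uninjured and 10.13, 10.38, 10.46 and 10.51 in the scratched arrays. All scratched arrays were lower, with a change of -0.45 (SE 0.09, adjusted p = 0.015). Krt15 fell as well (-0.45, adjusted p = 0.0017), and Sfn, the 14-3-3 protein of stratified epithelium, rose by 0.54 (adjusted p = 0.0076). Krt6a, the wound keratin, passed at 0.99 but not without uninjured replicate 3, and 2 other probe sets gave 0.50 and 0.23. Trp63, the basal cell transcription factor, was at -0.22 and did not pass.

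Of 20 squamous differentiation genes 2 passed as higher and 4 as lower. Cst6, a cystatin of cornified epithelium, read 9.03, 8.69, 8.56 and 8.29 in the uninjured and 6.95, 7.62, 7.52 and 7.49 in the scratched arrays. The scratched arrays were all below the lowest uninjured array, with a change of -1.25 (SE 0.16, adjusted p = 0.00075). Krt4 and Ppl fell (changes of -0.61 and -0.41, adjusted p = 0.0076 and 0.0033). Involucrin, Ivl, was at 0.98 and Sprr1a at 0.92, passing in 4 and 3 of 8 leave-one-out fits.

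Of 32 multiciliated cell genes 3 passed as higher and 1 fell, and their median was 0.07. Hydin, a central apparatus protein of motile cilia, rose by 0.53 (adjusted p = 0.0042), while Deup1, which builds the many centrioles of these cells, read 9.90, 9.92, 9.80 and 9.75 in the uninjured and 9.49, 9.43, 9.47 and 9.52 in the scratched arrays. Its scratched arrays were all lower, with a change of -0.36 (SE 0.08, adjusted p = 0.014). The dynein chain Dnah9 passed at 0.62 but not without uninjured replicate 2. Foxj1, the master regulator of motile cilia, was at 0.08 and Myb at -0.14, neither passing.

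The decreases were smaller and fell into fewer of the lists. H3f3b, a histone H3.3 gene with the largest decrease of all genes called, read 8.18, 8.37, 8.66 and 8.70 in the uninjured and 7.17, 6.98, 6.21 and 5.66 in the scratched arrays. The scratched arrays were widely spread but all below the uninjured ones, and the change was -1.97 (SE 0.33, adjusted p = 0.0041). Anxa10, an annexin, fell by 1.32 (adjusted p = 0.012), and the 2 uninjured arrays of the Lys set were about 1 unit above those of the Phe set. A second Anxa10 probe set at background gave -0.28.

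Of 14 caveolae and syndecan genes 4 passed as lower and none as higher; 2 to 4 did so in the leave-one-out fits (fewest without uninjured replicate 3 or scratched replicate 1). Cav1, the coat protein caveolin-1, read 12.26, 12.55, 12.19 and 12.21 in the uninjured and 10.94, 11.30, 11.30 and 11.31 in the scratched arrays. Scratched replicate 1 was the lowest, and all 4 lay about 1 unit below the uninjured arrays, with a change of -1.09 (SE 0.09, adjusted p = 2.5e-05). Cavin2, which shapes caveolae, read 12.48, 12.51, 12.53 and 12.49 in the uninjured and 11.34, 11.81, 11.85 and 11.97 in the scratched arrays. It fell by 0.76 (adjusted p = 0.0011), and 2 other probe sets gave -0.77 and -0.79. Syndecan-1, Sdc1, a known substrate of Mmp7, was at -0.20 (adjusted p = 0.076) and did not pass.

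Of 30 genes of xenobiotic metabolism and the oxidant response 4 passed as higher and 8 as lower. Akr1c14, an aldo-keto reductase, read 9.81, 9.75, 9.90 and 10.02 in the uninjured and 8.62, 9.003, 8.82 and 9.08 in the scratched arrays. The groups were apart, with a change of -0.99 (SE 0.11, adjusted p = 0.00019). The glutathione transferases Gsta4, Gstm1 and Gstm2 fell (changes of -0.31, -0.30 and -0.32), as did the epoxide hydrolase Ephx1 (-0.38, adjusted p = 0.00090). Gsta2, outside the list, fell by 0.89 (adjusted p = 0.0017). Of the oxidant response genes Srxn1, which repairs peroxiredoxins, rose by 0.41 in its brightest probe set and was at 0.17 and 0.04 in 2 others. Hmox1 and Slc7a11 passed at 0.55 and 0.83, in 6 and 4 of 8 leave-one-out fits. Nqo1 was at -0.22 and did not pass.

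Among 19 genes of BMP signalling 3 fell, the inhibitors of DNA binding Id1, Id2 and Id3, which are direct BMP targets, and 1 passed as higher, the ubiquitin ligase Smurf1 (0.60, in 2 of 8 leave-one-out fits). Id3 read 6.06, 6.41, 6.26 and 6.80 in the uninjured and 4.61, 5.39, 5.41 and 5.57 in the scratched arrays. All scratched arrays were below the uninjured ones, replicate 1 furthest, and the change was -1.14 (SE 0.19, adjusted p = 0.0041). Id1 and Id2 fell by 0.58 and 0.44 (adjusted p = 0.014 and 0.0082), and the ligand Bmp4 was at -0.39 without passing. Of 17 TGF-beta and activin genes the activin subunit Inhba and the feedback inhibitor Pmepa1 rose by 0.80 and 0.72 (adjusted p = 0.0076 and 0.00019), and Tgfb2 passed as lower (-0.35) in 2 of 8 leave-one-out fits.

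Of 24 ion and water transport genes 5 passed as lower and 1 as higher with all arrays. The number lower was 1 without uninjured replicate 2, 1 without uninjured replicate 3 and 2 without uninjured replicate 4. Aqp5, an apical water channel, always passed and fell by 0.34 (adjusted p = 0.013), and the basolateral water channel Aqp4 was the one higher (0.24, in 6 of 8 leave-one-out fits). The sodium channel subunits Scnn1a, Scnn1b and Scnn1g were at -0.34, -0.89 and -0.56, passing in 3, 5 and 5 of 8 leave-one-out fits. Of 18 clock genes the repressor Cry1 rose by 0.54 (adjusted p = 0.0045). The clock output factor Dbp fell by 0.68 (adjusted p = 0.0016), and the repressor Nr1d2 passed as lower (-0.33) in 6 of 8 leave-one-out fits.

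The remaining groups are given in brief. Among 21 glycolysis and hypoxia genes 4 passed as higher and 1 as lower, 23.8% against 4.72% of all genes. Ndrg1, Adm and Hk2 rose by 0.98, 0.95 and 0.59 (adjusted p = 0.00032, 0.0029 and 0.00055). The glucose transporter Slc2a1 passed as higher (0.25) and the pyruvate kinase Pkm as lower (-0.28), in 2 and 5 of 8 leave-one-out fits, while Ldha was at 0.02 and Vegfa at -0.05. Among 15 Notch genes 1 passed, near the 4.72% of all genes that did. The target Hey1 rose by 1.22 (adjusted p = 0.00064) and Hes1 was at -0.21. None of 32 oxidative phosphorylation and 21 ribosomal protein genes rose, against 2.27% of all genes. As lower, 2 and 2 passed with all arrays but 0 to 3 and 0 to 2 in the leave-one-out fits, against 2.45% of all genes with all arrays. Of 26 ER stress and heat shock genes 3 passed as lower, and 0 to 2 did so in the leave-one-out fits; the ER chaperone Hspa5 was at 0.17.

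The wild-type cultures, which share no arrays with the Mmp7-null ones, gave 883 called genes on scratching (4.85%), 464 higher (2.55%) and 419 lower (2.3%). Both comparisons used the same estimate of each gene's spread, so their calls are not independent of each other. Of the 859 genes called in Mmp7-null cultures 345 were called in the same direction in wild-type and 4 in the opposite one. The remaining 510 were not called in wild-type, but the responses themselves differed by test in 3 of those. Over all genes 24 (0.132%) had a different response in the 2 genotypes, with the Mmp7-null response above that of wild-type in 5 (0.0275%) and below it in 19 (0.104%). Leaving out 1 array of any group moved that number between 8 and 28, with 8, 15 and 12 without Mmp7-null scratched replicates 3 and 4 and uninjured replicate 3. It was 12, 14 and 12 without wild-type uninjured replicate 1 and scratched replicates 1 and 2. Without the 3 arrays of lower signal or RNA quality (Mmp7-null scratched 1, wild-type scratched 3 and 4) it was 50. Each gene's difference is the Mmp7-null change minus the wild-type change. Wild-type uninjured 1 and scratched 1 were in the Phe spike-in set. Replicates 2, 3 and 4 of both wild-type groups were in a further set, Trpn, which holds no Mmp7-null array. No wild-type array was in the Lys set. Genotype and set were thus mostly tied, so a difference between the genotypes cannot be fully told apart from one between sets.

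Slpi, an inhibitor of neutrophil elastase, read 10.18, 10.32, 10.13 and 10.07 in the uninjured and 9.69, 9.51, 9.40 and 9.65 in the scratched arrays. Its scratched Mmp7-null arrays were all lower, with a change of -0.61 (SE 0.08, adjusted p = 0.00052), whereas wild-type went from 10.13 to 10.45, a change of 0.32 (SE 0.08, adjusted p = 0.025), and the difference was -0.94 (SE 0.11, adjusted p = 0.0061). Dbp read 10.02, 9.998, 10.06 and 10.11 in the uninjured and 9.12, 9.60, 9.38 and 9.37 in the scratched arrays. It was lower in every scratched Mmp7-null array, the wild-type change was 0.27 (SE 0.10, adjusted p = 0.17) and the difference was -0.95 (SE 0.14, adjusted p = 0.020). Srebf2 was at 0.06 in wild-type (adjusted p = 0.78), which gave a difference of 0.67 (SE 0.11, adjusted p = 0.037). Agr2 rose in both genotypes, by 2.54 in wild-type, with a difference of -1.10 (SE 0.19, adjusted p = 0.043). Fabp5, a fatty acid carrier of proliferating epithelium, read 7.74, 7.89, 7.61 and 7.57 in the uninjured and 8.95, 8.99, 9.01 and 8.96 in the scratched arrays. It rose in both as well, by 1.27 in Mmp7-null and 2.06 in wild-type, and the difference was -0.78 (SE 0.11, adjusted p = 0.019).

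Cd68, a lysosomal protein of macrophages that other cells also make, read 6.79, 6.73, 6.80 and 6.87 in the uninjured and 6.26, 6.94, 6.79 and 6.87 in the scratched arrays. The Mmp7-null groups overlapped and the change was -0.08 (adjusted p = 0.79), the wild-type change was 1.03 (SE 0.14, adjusted p = 0.00041) and the difference was -1.12 (SE 0.19, adjusted p = 0.043). Several cell division genes had a smaller response in Mmp7-null cultures: the differences were -0.51 for Cks2, -0.89 for Cdca3, -0.83 for Cep55, -1.05 for Kif2c and -0.65 for Sgo2a (adjusted p = 0.019, 0.043, 0.037, 0.043 and 0.025). All of these but Cks2 lie outside the rule for naming genes and were chosen after their values were seen. Uninjured means of these genes were all higher in Mmp7-null than in wild-type cultures, which was not tested. They were 9.999 against 9.52 for Cks2, 6.76 against 6.41 for Cdca3 and 8.44 against 7.78 for Cep55. For Kif2c and Sgo2a they were 6.89 against 6.23 and 6.36 against 5.75. Scratched means, in the same order, were 10.15 against 10.18, 7.38 against 7.92, 8.88 against 9.05, 7.24 against 7.63 and 6.32 against 6.36. The gap was wider before scratching in all but Cdca3. The mitosis list as a whole had a median change of 1.10 in wild-type and 0.54 in Mmp7-null cultures, with 37 and 23 members risen, and 2 of its 42 members differed by the test of the difference. Ube2c, at 2.14 and 1.58, was not among them (-0.55 (SE 0.18, adjusted p = 0.44)). The sterol list had 9 risen members in wild-type and a median of 0.31 there, and Srebf2 was the member whose response differed. For the interferon gene Ifit3 the wild-type change was 0.10 and the difference of 1.41 (SE 0.80, adjusted p = 0.71) did not pass. Ppbp and Ptgs2, among the largest Mmp7-null changes, were at 4.62 and 2.54 in wild-type and the differences did not pass (-0.75 (SE 0.56, adjusted p = 0.75) and -0.46 (SE 0.27, adjusted p = 0.73)).

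**Figure D5:**
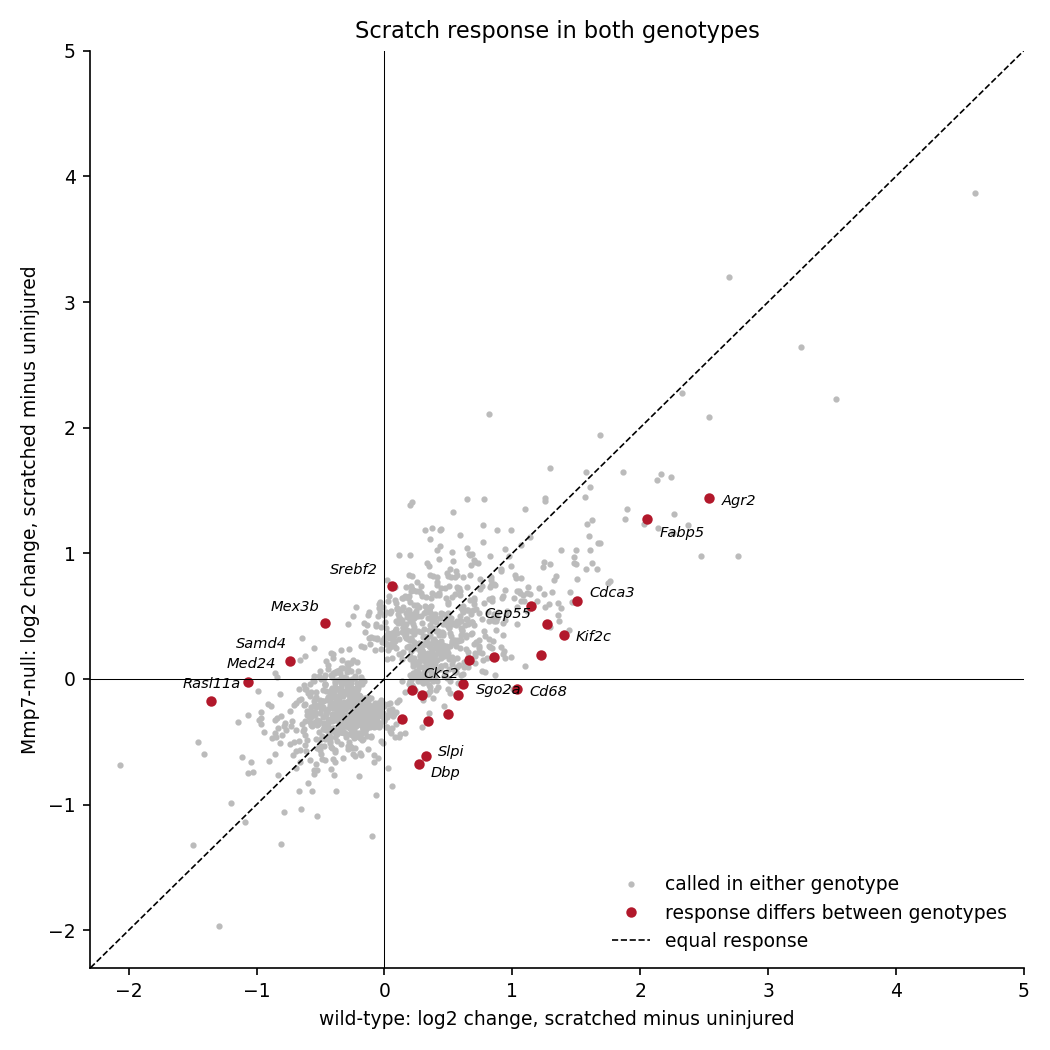
Log2 change on scratching in Mmp7-null (vertical) against wild-type cultures (horizontal) for the genes called in at least 1 of both comparisons (grey), with the 24 genes whose response differed between genotypes in red, some of them labelled, and a line of equal response. Slpi and Dbp lie below 0 on the vertical axis and above 0 on the horizontal one, and 19 of the red points lie below the line.

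Markers of cells other than airway epithelium were examined beside these results. The endothelial genes Pecam1, Cdh5 and Kdr, the T cell gene Cd3e, the pan-leukocyte gene Ptprc and the fibroblast gene Col1a1 were at background. None of 17 leukocyte or 12 endothelial markers passed limma's adjusted threshold, which 4.72% of all genes passed, so counts of 0 are near that share. At an unadjusted p under 0.05, 2 and 0 were higher, against 1252 of all 18193 genes. Above background were 7 leukocyte markers (Adgre1, Cd14, Cd68, Csf1r, Laptm5, Lyz2 and Ms4a1) and 3 endothelial ones (Egfl7, Eng and Esam). The summed linear intensity of the leukocyte list ran from 15190 to 18580 in uninjured and from 19030 to 21130 in scratched arrays, so that every scratched array was higher. Most of that sum came from Cd14, an endotoxin receptor, and Lyz2, a lysozyme, both of which epithelial cells can make, with changes of 0.21 and 0.41 (adjusted p = 0.053 and 0.072; chosen after their values were seen). The endothelial sum ran from 75.6 to 77.2 and from 72.7 to 74.1. The part of leukocytes in the chemokine, cytokine and NF-kB target changes was not tested. Of 19 mesenchymal markers 6 were above background and 1 rose, Dcn, which is near the 4.72% of all genes that passed. The summed linear intensity of the mesenchymal list ran from 318 to 490 in uninjured and from 523 to 847 in scratched arrays. Col3a1, a fibroblast collagen, read 2.67, 2.74, 2.66 and 2.70 in the uninjured and 4.92, 2.68, 4.61 and 2.69 in the scratched arrays. It was above background in scratched replicates 1 and 3 only, which were also the highest for Timp1 and Vim, and did not pass (adjusted p = 0.19). The part of such cells in the changes of Dcn, Tnc, Fn1 and Timp1 was not tested. Of 12 alveolar markers 9 were above background. Changes were positive in 5 of the 12 and negative in 7, and 1 passed. This was Sftpd, a surfactant protein also made in airways, which rose by 0.34 (adjusted p = 0.013). Ager was at -0.60 and did not pass, and its second probe set gave -0.71.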

How the data were processed

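Total RNA of 16 cultures was hybridised to 1 Affymetrix mouse array each. The authors deposited intensities on a linear scale made with RMA (background correction, normalization, probe summary), per the submitters' processing notes; the version was not given in the sources used here. The 45101 probe sets in the table are those of a larger array of the same family than the labels name. Intensities were converted to log2 with no further normalization. Of the probe sets other than 64 controls, 34945 had 1 gene symbol, 932 several and 9160 none, and the last 2 kinds were not used. For each of 18193 genes the brightest probe set, by its mean over the 16 arrays, was used. Background was the 95th percentile of control transcripts absent from an array, 2.97 in log2 units, and 11692 genes lay above it in a Mmp7-null group.

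In R 4.3.3 with limma 3.58.1, all 16 arrays were fitted with a mean for each group (12 residual degrees of freedom), with eBayes and two-sided Benjamini-Hochberg adjustment over all genes. Contrasts were scratched against uninjured in each genotype and the difference of both. The script was tested on simulated data. Genes were named by rule: Mmp7, the 25 largest separated changes each way, called and defining list members, and the 10 smallest p for the difference. The members, the 48 gene lists (937 genes measured) and the alternatives were chosen with earlier results of these data known, while arrays were assigned to groups by label. Replicate numbers were checked for pairing, and same-numbered samples did not deviate together. Alternatives were the arrays fitted, a replicate block, spike-in sets, weights, normalization, filters, probe set choice and leaving out arrays. Promoter sequences came from RefSeq's annotation of GRCm38.p6, with 14452 of the genes matched by symbol.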

Additional observations from a re-analysis of the deposited data

Results flagged for a closer look

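Single arrays stood apart from the other 3 of their group (a gap, relative to the group's range, above Dixon's 95% critical value for 4 samples) in 32 of 424 pairs of a named gene and a Mmp7-null group; chance alone would flag about 1 in 20. Among the uninjured arrays, replicate 1 was the highest for Amot (7.07) and Dnah9 (5.99), and the lowest for Fos (7.94), Ppl (9.39) and Yap1 (8.83). Uninjured replicate 2 was the highest for Sgo2a (6.54), and the lowest for Ccl28 (8.34) and Cks2 (9.92). Uninjured replicate 3 was the highest for Srxn1 (9.50) and Tm7sf2 (7.22). Uninjured replicate 4 was the highest for Dusp1 (10.79) and Timp1 (4.50), and the lowest for Krt15 (14.11) and Sqle (8.71). Among the scratched arrays, replicate 1 was the highest for Csf1r (4.49), and the lowest for Avpi1 (10.45), Cav1 (10.94), Ccnb2 (7.17), Ephx1 (13.22), Scnn1g (7.57), Serpinb2 (7.02) and Tpm4 (11.93). Scratched replicate 2 was the highest for Sgo2a (6.39), and the lowest for Adm (6.67) and Hey1 (7.28). Scratched replicate 3 was the highest for Ccn2 (12.52), Hbegf (8.47) and Kcnj15 (6.45), and the lowest for Egfl7 (3.58). Scratched replicate 4 was the highest for Kit (4.53), Laptm5 (4.46) and Sftpd (14.14). Values in parentheses are log2 intensities.

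The scratch responses of the genotypes differed by limma's test of the difference in 24 genes. The Mmp7-null change was above the wild-type one, with the difference in log2 units in parentheses, in Med24 (1.04), Mex3b (0.91), Rasl11a (1.18), Samd4 (0.88) and Srebf2 (0.67). It was below the wild-type one in Agr2 (-1.10), Arrdc3 (-0.78), Avpi1 (-0.68), Cd68 (-1.12), Cdca3 (-0.89), Cep55 (-0.83), Cks2 (-0.51), Dbp (-0.95), Fabp5 (-0.78), Hnrnpc (-0.30), Kcnj15 (-1.03), Kcnk1 (-0.43), Kif2c (-1.05), Prss8 (-0.67), Sdhaf4 (-0.46), Sec23b (-0.57), Sgo2a (-0.65), Slc5a3 (-0.70) and Slpi (-0.94).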

How the results depend on the processing

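The count of 859 genes called was 402 (245 higher, 157 lower) with the 8 Mmp7-null arrays alone, 286 (161 and 125) within the Lys set and 79 (66 and 13) within the Phe set, where fewer arrays were compared. Array weights gave 633 higher. Leaving out 1 Mmp7-null array gave 516 to 816 genes in all, 289 to 395 higher and 218 to 474 lower. All other settings gave 700 to 1162. Same-numbered samples did not deviate together (correlations from -0.14 to 0.0411). Only uninjured replicate 2 correlated best with the scratched array of its own number. The labels do not say whether same-numbered cultures came from one animal, and these correlations cannot decide it. The replicate block gave 749 genes. The 24 response differences became 14 with the replicate block, 15 with log2 of intensity plus 10, 37 without the dimmest 40% of genes, 50 with quantile normalization, 58 with array medians centred, 100 with array weights and 50 without the 3 arrays of lower quality, and ran from 8 to 28 leaving out 1 array; the cause was not tested. Of 4901 values of named genes under alternatives 4388 kept their call or the lack of one, 476 lost the call and 37 gained one. None of the called genes changed sign. A change of sign in a gene that passed in neither fit was counted as kept. Medians centred and the removal of the 3 arrays were chosen after seeing the data. The number of arrays limits precision to a median SE of 0.10 over genes above background. Genes at background have no measurable decrease.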

Other observations

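Outside the lists, several called genes with no overlap between groups belong to other processes. Edn1, endothelin-1, rose by 1.02 (adjusted p = 4.4e-06), the metallothionein Mt2 by 0.91 (adjusted p = 0.00088), and Noxo1 and Cybb, parts of NADPH oxidases, by 0.91 and 0.81 (adjusted p = 0.00093 and 0.0077). Lox, a collagen crosslinking oxidase, rose by 0.68 (adjusted p = 0.0024), and the Hippo pathway scaffold Amot by 0.75 (adjusted p = 0.0081). Kitl, the ligand of the Kit receptor, fell by 0.65 (adjusted p = 0.00054) and Ackr3, a scavenging chemokine receptor, by 0.56 (adjusted p = 0.00066). These genes were chosen after their values were seen.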
